A study of Mus musculus with 6 samples.

Results

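The genes described are 9 that build, branch and break down glycogen in skeletal muscle or switch those steps on and off: Ppp1r3c, Ppp1r3a, Gyg, Gys1, Gbe1, Pygm, Phka1, Phkb and Phkg1. They were taken by symbol from a deposited table of 11815 genes, and all 9 were found. RNA was taken at 15 weeks of age from the gastrocnemius, the large and mostly fast-twitch muscle of the calf, of mice on a C57BL/6 background. The KO mice carried a CRISPR deletion of 5147 bp that removed the whole transcript of the long non-coding RNA lnc-ORA. Cas9 mRNA and guide RNAs had been injected into fertilised eggs, so the deletion is in the germ line, and founders were crossed to wild-type mice. The WT mice carried no deletion, and the labels give neither the sex of the mice, nor whether KO and WT were littermates, nor how many founder lines were used. There were 3 KO libraries (replicates 1, 2 and 3) and 3 WT libraries (replicates 2, 3 and 4). The study addressed a role of lnc-ORA in switching between muscle fibre types. The deleted locus was not analysed here, so the genotype labels were taken as given.

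Glycogen is the branched glucose store of the cell, and in muscle it fuels contraction. Glycogenin starts each particle, glycogen synthase lengthens the chains and the branching enzyme adds side chains. Glycogen phosphorylase takes glucose off again as glucose 1-phosphate. Phosphorylase kinase, built from alpha, beta and gamma subunits with calmodulin as the delta subunit, switches phosphorylase on when calcium or adrenaline signals arrive. Protein phosphatase 1 (PP1) reverses this and activates glycogen synthase, and it is brought to the glycogen particle by targeting subunits such as the products of Ppp1r3c and Ppp1r3a.

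Of the 9 genes, Ppp1r3c was higher in KO muscle and Gbe1 was lower, so that 2 were called, against 17.3% of all tested genes. The call required a Benjamini-Hochberg adjusted p under 0.05 in limma, fitted over the 7574 genes that reached 1 RPKM in 3 or more libraries. RPKM scale the reads of a gene by its length and by the size of the library, so levels of different genes can be compared. All 9 genes were above 1 RPKM in all 6 libraries. By direction, 1 of the 9 was called each way, while over all tested genes 3.83% were called higher and 13.5% lower in KO. The KO and WT libraries did not overlap in 5 of the 9 genes, with KO above WT in Ppp1r3c and Phka1 and KO below WT in Gbe1, Gyg and Phkb. Across all tested genes, 39.2% had groups that did not overlap. Of these genes, given as shares of all tested, 9.22% had every KO library above every WT library and 30.0% the reverse. The median log2 fold change of the 9 genes was -0.14, beside -0.09 over all tested genes. An unadjusted p under 0.05 was reached by 5 of the 9, against 33.4% of all tested genes. These counts over 9 genes are no result about the group, and what follows goes gene by gene.

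**Figure D1:**
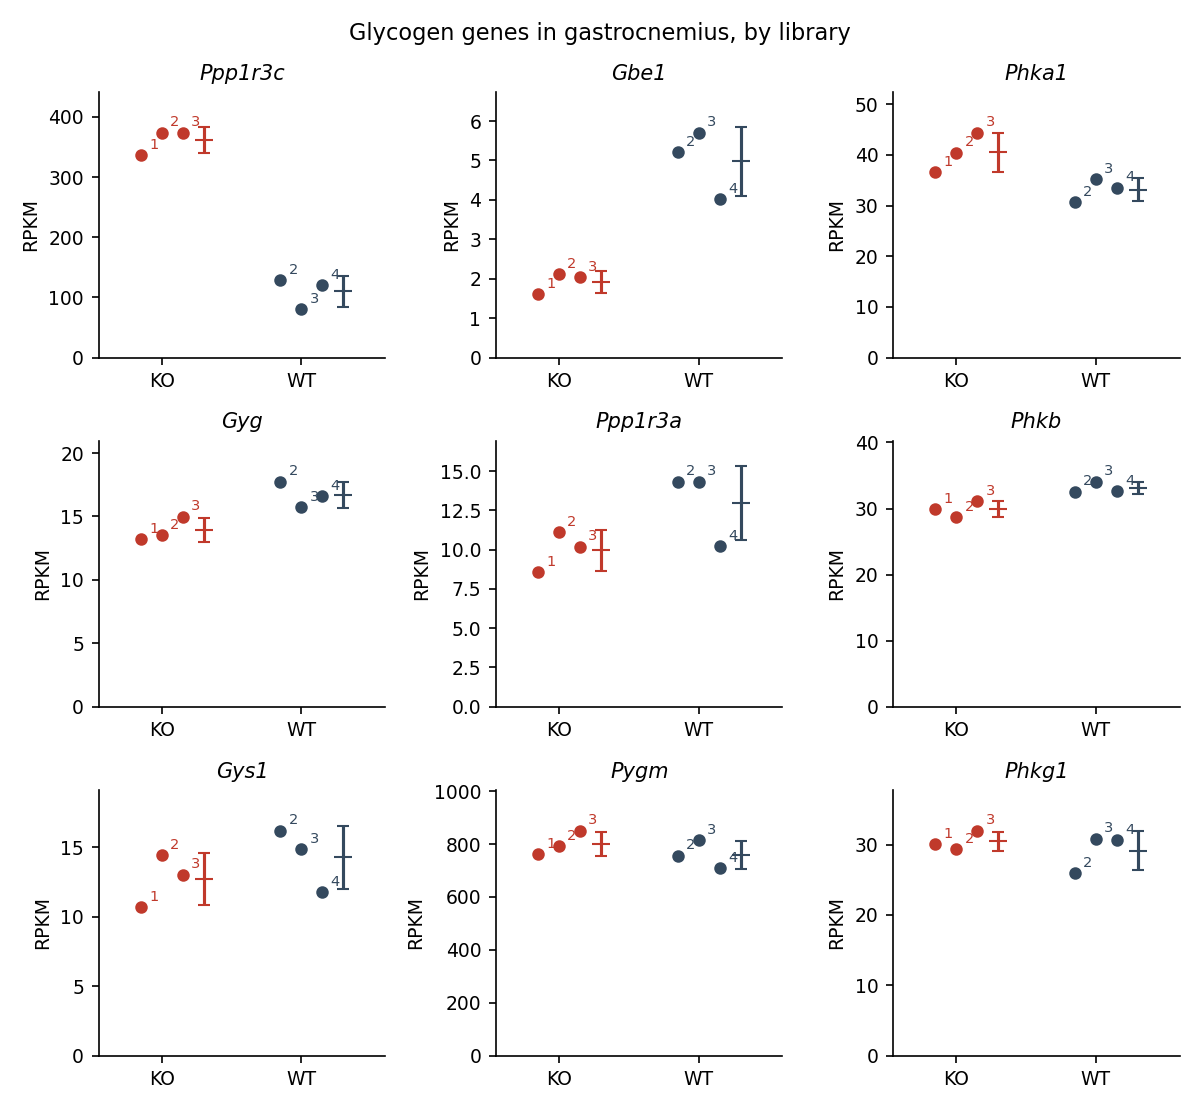
RPKM of each of the 9 glycogen genes in the 3 KO libraries (red) and the 3 WT libraries (dark blue); each point is a library, labelled by its replicate number, and the bar beside the points is the mean with its SD. Ppp1r3c lies between 337 and 374 RPKM in KO libraries and at most at 129 RPKM in WT libraries, Gbe1 is under 2.2 RPKM in every KO library and above 4.0 in every WT library, and the groups lie closer together in the other 7 genes.

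A shift of the whole table bears on every small difference. The 10 most abundant genes, led by the fast myosin gene Myh4, took 50.3% to 54.0% of the reads in KO libraries and 44.5% to 48.4% in WT libraries. RPKM divide by all reads of a library, so a larger share of these genes goes with lower RPKM of the others. Making the library medians equal raised log2 fold changes by a median of 0.10 over all tested genes. Leaving those 10 genes out of the library totals raised them by 0.12, and limma-voom on recovered reads with trimmed-mean scaling by 0.11. Under equal medians 602 genes were called higher and 665 lower, against 290 and 1021 with RPKM as deposited. Library totals, fitted from the RPKM values, came to 54370181 to 69693905 reads. Whether the libraries stand for different animals is not labelled, so that p-values measure the spread between libraries, which may be technical.

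Ppp1r3c, which brings PP1 to glycogen and so favours glycogen synthesis, showed the largest change of the 9 genes. It stood at 337, 374 and 374 RPKM in KO replicates 1, 2 and 3, and at 129, 81.1 and 121 RPKM in WT replicates 2, 3 and 4. The lowest KO library was 2.61 times the highest WT library, so the groups were far apart. Mean levels were 362 ± 21.6 RPKM in KO and 110 ± 25.5 RPKM in WT (SD, n = 3 each), a ratio of 3.28. The log2 fold change was 1.73 (SE 0.17, 95% interval 1.35 to 2.12, limma adjusted p = 0.00136). By the size of its fold change Ppp1r3c ranked 14 among the 7574 tested genes. The spread was narrower among KO libraries, with the highest at 1.11 times the lowest, than among WT libraries, at 1.59 times. WT replicate 3 was the low library. Between 11994 and 62917 reads stood behind each value, as recovered with an inferred gene length of 2719 bp. The gene lies on chromosome 19 from 36731731 to 36736653 on the minus strand (GRCm38, GENCODE M21), and no stretch of 50 bases of its longest transcript occurs in transcripts of other genes.

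The promoter of Ppp1r3c is shown because this gene carries the largest difference. The window searched was the 250 bases before the RefSeq start (GRCm38.p6, chr19:36736605-36736854, minus strand). That start lies within the gene as GENCODE places it, and the 49 bases of the window inside that gene are not printed. The other 201 bases (chr19:36736654-36736854, written 5′ to 3′) contain short motifs that are in capitals.
Ppp1r3c: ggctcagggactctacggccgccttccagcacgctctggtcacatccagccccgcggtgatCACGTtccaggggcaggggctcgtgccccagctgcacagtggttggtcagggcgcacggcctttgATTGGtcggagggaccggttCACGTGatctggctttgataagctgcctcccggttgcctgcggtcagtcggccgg
The motifs searched on both strands were ACGTG (the core of the hypoxia response element), CACGTG (the palindromic E-box, which contains ACGTG on both strands), TGACGTCA (the cyclic AMP response element), GTAAACA (a FoxO site), CCAAT (bound by the factor NF-Y), TATAAA (the TATA box) and GGGCGG (the GC box). The Ppp1r3c window held CACGTG, 1 further ACGTG on the opposite strand and 1 CCAAT on the opposite strand. Among 32817 RefSeq promoter windows of this length, 16.6% held ACGTG, 6.0% held CACGTG and 33.8% held CCAAT. A match describes the letters and does not show a bound site.

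Ppp1r3a, the targeting subunit typical of striated muscle, ran lower without passing the test. Its values were 8.57, 11.1 and 10.2 RPKM in KO replicates 1, 2 and 3, against 14.3, 14.3 and 10.2 RPKM in WT replicates 2, 3 and 4. WT replicate 4 sat among the KO libraries, and the other WT libraries were above all of them. The log2 fold change was -0.34 (SE 0.14, 95% interval -0.68 to -0.01, limma adjusted p = 0.138). Without WT replicate 4 the gene passed, at a log2 fold change of -0.49 and an adjusted p of 0.0229. It passed in 2 of 12 other limma fits, with an adjusted p of up to 0.36 in the rest. Ppp1r3a lies on chromosome 6 from 14713977 to 14755274 on the minus strand.

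The balance between these targeting subunits was compared within each library, where the library total cancels out. The log2 ratio of Ppp1r3c to Ppp1r3a was 5.30, 5.07 and 5.20 in KO replicates 1, 2 and 3 and 3.17, 2.50 and 3.56 in WT replicates 2, 3 and 4. Every KO library lay above every WT library, with a difference of 2.11 on the log2 scale. The ratio reuses the Ppp1r3c values given above, so this separation is no separate support for them. The exact two-sided permutation test gave p = 0.1, which is the smallest that 3 against 3 libraries allow, and 0.125 after adjustment over the 5 ratios computed.

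On the synthesis side neither the primer nor the synthase passed the test, while the branching enzyme did. Gyg, which encodes glycogenin, had 13.2, 13.5 and 15.0 RPKM in KO replicates 1, 2 and 3, against 17.8, 15.8 and 16.6 RPKM in WT replicates 2, 3 and 4. Every KO library was below every WT library, but by little, and the log2 fold change of -0.25 did not pass (SE 0.09, 95% interval -0.44 to -0.05, limma adjusted p = 0.0833).

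Gys1, the muscle glycogen synthase, had 10.7, 14.4 and 13.0 RPKM in KO replicates 1, 2 and 3, against 16.2, 14.9 and 11.8 RPKM in WT replicates 2, 3 and 4. The groups overlapped, with the lowest WT library below 2 of the KO libraries. The log2 fold change was -0.15 (SE 0.14, 95% interval -0.48 to 0.17, limma adjusted p = 0.479), and the interval allows a modest change in either direction. Gyg lies on chromosome 3 from 20122084 to 20155317 on the minus strand and Gys1 on chromosome 7 from 45434844 to 45456619 on the plus strand. Exons of Gys1 and of Ruvbl2 on the opposite strand share 310 bases. Without a stated strand setting, reads there cannot be told apart.

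Gbe1, the glycogen branching enzyme, was the only one of the 9 called lower. Its level was 1.61, 2.12 and 2.04 RPKM in KO replicates 1, 2 and 3, against 5.21, 5.71 and 4.01 RPKM in WT replicates 2, 3 and 4. The highest KO library had 0.528 times the level of the lowest WT library. Means were 1.92 ± 0.28 RPKM in KO and 4.98 ± 0.87 RPKM in WT (SD, n = 3 each), a ratio of 0.386. On the log2(RPKM + 1) scale the fold change was -1.03 (SE 0.13, 95% interval -1.32 to -0.74, limma adjusted p = 0.00279). That scale understates changes of low genes, and with a pseudocount of 0.1 it was -1.32. Gbe1 was the lowest of the 9 genes in both genotypes, with 591 to 1945 reads per library. Counting error alone at 591 reads is 4.11%, far under the difference, although such error covers sampling of reads and not their amplification.

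Gbe1 lies on chromosome 16 from 70313949 to 70569716 on the plus strand, and no stretch of 50 bases of its longest transcript occurs in transcripts of other genes. Its promoter (RefSeq, GRCm38.p6, chr16:70313699-70313948, plus strand, the 250 bases before the start, 5′ to 3′) is shown beside that of Ppp1r3c because these genes moved in opposite directions.
Gbe1: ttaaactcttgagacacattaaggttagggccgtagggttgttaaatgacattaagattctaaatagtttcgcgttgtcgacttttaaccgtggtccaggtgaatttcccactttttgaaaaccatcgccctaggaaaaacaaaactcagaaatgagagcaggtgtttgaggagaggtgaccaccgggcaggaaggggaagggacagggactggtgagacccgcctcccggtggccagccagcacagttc
None of the 7 motifs occurred in this window, which says only that these letters are absent there. Its GC content was 48.8%, against 64.4% in the Ppp1r3c window and a median of 52.4% over all windows.

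The branching enzyme was set against glycogen synthase within a library. This ratio reuses the Gbe1 values given above, so it is no separate support for them. The log2 ratio of Gbe1 to Gys1 was -2.73, -2.77 and -2.67 in KO replicates 1, 2 and 3, and -1.63, -1.38 and -1.55 in WT replicates 2, 3 and 4. The KO values lay within 0.1 of each other and all below the WT values, with a difference of -1.20 (exact two-sided permutation p = 0.1, the smallest possible; 0.125 adjusted over the 5 ratios).

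On the breakdown side, Pygm, the muscle glycogen phosphorylase, was by far the most abundant of the 9 and nearly level between the genotypes. It had 761, 791 and 851 RPKM in KO replicates 1, 2 and 3, against 756, 814 and 708 RPKM in WT replicates 2, 3 and 4. The libraries of both groups were mixed in order, and the log2 fold change of 0.08 did not pass (SE 0.09, 95% interval -0.14 to 0.29, limma adjusted p = 0.596). Ratios of Gys1 to Pygm overlapped too, with a difference of -0.24 on the log2 scale (exact two-sided permutation p = 0.2, and 0.2 adjusted over the 5 ratios). Pygm lies on chromosome 19 from 6384399 to 6398459 on the plus strand, and 0.46% of the 50-base stretches of its longest transcript also occur in Pygb, the brain phosphorylase.

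None of the subunits of phosphorylase kinase passed the test. Phka1, the muscle alpha subunit, had 36.6, 40.5 and 44.4 RPKM in KO replicates 1, 2 and 3, against 30.6, 35.2 and 33.5 RPKM in WT replicates 2, 3 and 4. All KO libraries were above all WT libraries, but the lowest KO library exceeded the highest WT library by a factor of only 1.04. The log2 fold change of 0.28 did not pass (SE 0.10, 95% interval 0.05 to 0.51, limma adjusted p = 0.0874). It passed under equal library medians (log2 fold change 0.38, adjusted p = 0.0486), with the 10 most abundant genes left out of the totals (0.42, adjusted p = 0.0307) and in limma-voom (0.41, adjusted p = 0.0348). In the limma fits without 1 library it did not pass (adjusted p of 0.0952 to 0.285).

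Phkb, the beta subunit, had 29.9, 28.7 and 31.1 RPKM in KO replicates 1, 2 and 3, against 32.6, 34.1 and 32.6 RPKM in WT replicates 2, 3 and 4. Every KO library was below every WT library, and the log2 fold change was -0.14 (SE 0.08, 95% interval -0.32 to 0.03, limma adjusted p = 0.223). With the 10 most abundant genes left out of the totals it was 0.003, so that its direction rests on the scaling. Phkg1, the catalytic gamma subunit of muscle, had 30.1, 29.4 and 32.0 RPKM in KO replicates 1, 2 and 3, against 26.0, 30.9 and 30.6 RPKM in WT replicates 2, 3 and 4. Its groups overlapped, and the log2 fold change of 0.07 (95% interval -0.15 to 0.28, limma adjusted p = 0.655) became -0.012 without WT replicate 2, the low one. Phkg1 shares 630 exonic bases with Sumf2 on the opposite strand, where reads of the neighbours cannot be told apart. Of the 50-base stretches of its longest transcript, 2.97% also occur in other genes, the largest share among the 9.

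Within a library, the beta and gamma subunits stood lower against the alpha subunit in KO muscle. The log2 ratio of Phkb to Phka1 was -0.29, -0.50 and -0.51 in KO replicates 1, 2 and 3, and 0.09, -0.05 and -0.04 in WT replicates 2, 3 and 4. The beta and alpha messages were thus nearly equal per length in WT libraries and not in KO libraries, a difference of -0.43. For Phkg1 to Phka1 the ratio ranged from -0.47 to -0.28 in KO and from -0.24 to -0.13 in WT, a difference of -0.22. Neither pair of groups overlapped, and each exact two-sided permutation test gave its smallest p of 0.1 (0.125 adjusted over the 5 ratios). Both ratios reuse the Phka1 values given above, so they are not independent of each other. Phka1 lies on chromosome X from 102513975 to 102644246 on the minus strand, Phkb on chromosome 8 from 85840959 to 86061376 on the plus strand and Phkg1 on chromosome 5 from 129863421 to 129898549 on the minus strand.

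**Figure D2:**
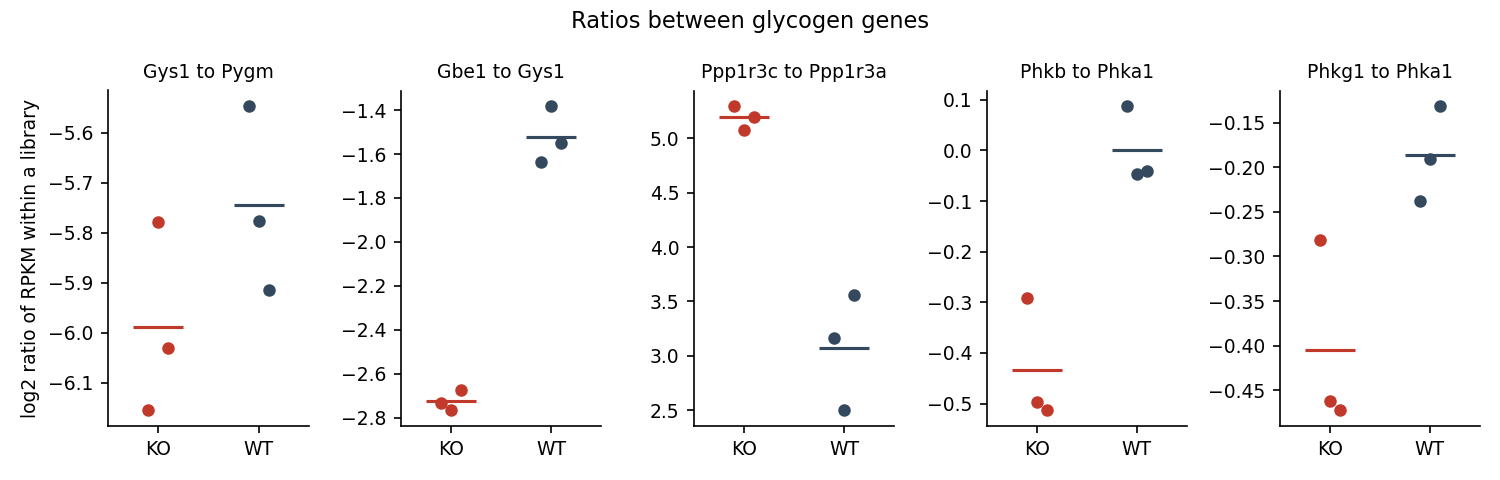
Log2 ratios of RPKM between pairs of glycogen genes within each library, for 3 KO libraries (red, left) and 3 WT libraries (dark blue, right), with lines at the group means; each panel has its own axis. The groups overlap for Gys1 to Pygm and are apart for the other ratios, each at an exact permutation p of 0.125 after adjustment. The ratios reuse values of the single genes, Phka1 serves as divisor more than once, and no share over other gene pairs was computed. The difference is 2.11 for Ppp1r3c to Ppp1r3a and -1.20 for Gbe1 to Gys1.

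By level, the order of the genes was much the same in both genotypes. In KO muscle the order of mean RPKM was Pygm (801), Ppp1r3c (362), Phka1 (40.5), Phkg1 (30.5), Phkb (29.9), Gyg (13.9), Gys1 (12.7), Ppp1r3a (9.96) and Gbe1 (1.92). In WT muscle it was Pygm (760), Ppp1r3c (110), Phka1 (33.1), Phkb (33.1), Phkg1 (29.2), Gyg (16.7), Gys1 (14.3), Ppp1r3a (13.0) and Gbe1 (4.98). Of neighbours in the order, Gyg overlapped with Gys1 and Gys1 with Ppp1r3a in both groups, as did Phkg1 with Phkb in KO and Phka1 with Phkb in WT. Pygm made up 61.5% of the summed RPKM of the 9 genes in KO and 74.9% in WT, and Ppp1r3c 27.8% in KO and 10.9% in WT. Among all tested genes ordered by mean level, Ppp1r3c was number 87 in KO and number 271 in WT, and Gbe1 number 5333 in KO and number 3184 in WT.

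Other genes of the pathway were read from 5 lists with 54 entries, of which 42 were in the table and 35 were tested. Of the 35, 5 were higher and 4 lower in KO, against 3.83% higher and 13.5% lower of all tested genes, with a median log2 fold change of -0.08. With equal library medians limma called 9 higher and 0 lower. Without adjustment and with RPKM as deposited, 8 passed 0.05 in the lower direction. Of the 4 called lower, Epm2aip1 and Csnk2a2 had every KO library under 1 RPKM and reached the test only through WT, so their calls are no support for a direction. Counts over lists as short as these are descriptions beside the shares of all tested genes. Among 9 tested enzymes and scaffolds, Pgm2 and Stbd1 rose and Gaa and Epm2aip1 were called lower. Pgm2, a phosphoglucomutase that interconverts glucose 1-phosphate and glucose 6-phosphate, averaged 199 ± 11.5 RPKM in KO and 137 ± 12.1 in WT (SD, n = 3 each; log2 fold change 0.53, limma adjusted p = 0.00951). Stbd1, a glycogen-binding protein that tethers glycogen to membranes, averaged 17.0 ± 0.34 RPKM in KO and 12.2 ± 1.59 in WT (log2 fold change 0.46, limma adjusted p = 0.0193).

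Gaa, the lysosomal enzyme that degrades glycogen, fell to 6.35 ± 0.34 RPKM in KO, against 8.82 ± 1.17 in WT (log2 fold change -0.41, limma adjusted p = 0.0324). Epm2aip1, whose product binds laforin, averaged 0.83 ± 0.10 RPKM in KO and 1.19 ± 0.14 in WT (log2 fold change -0.26, limma adjusted p = 0.0484). As said above, Epm2aip1 reached the test only through WT. Neither call held under equal library medians (adjusted p of 0.0572 for Gaa and 0.0983 for Epm2aip1), nor without any one of KO replicates 1, 2 and 3 or WT replicates 2 and 3 (adjusted p of up to 0.107 for Gaa and 0.161 for Epm2aip1). Ugp2, which makes the UDP-glucose used by glycogen synthase, was at -0.35 on the log2 scale (adjusted p = 0.189) and Pgm2l1 at 0.15 (adjusted p = 0.299). Pgm2l1 passed in 2 of 12 other limma fits, as under equal library medians (0.25, adjusted p = 0.0388), with an adjusted p of up to 0.559 in the rest.

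The isoforms of phosphorylase kinase typical of liver were far below the muscle ones and under the filter, so they were not tested. Phka2 ranged from 0.329 to 0.403 RPKM in KO and from 0.669 to 0.879 RPKM in WT. Phkg2 ranged from 0.423 to 0.478 RPKM in KO and from 0.547 to 0.721 RPKM in WT. KO was below WT without overlap in both, as in 30.0% of all tested genes, and both were named after their values were seen.

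Of 5 tested genes of PP1 itself, 1 was called in limma, beside 17.3% of all tested genes. This was Ppp1r1a, inhibitor 1 of PP1, at 16.7 ± 0.72 RPKM in KO and 21.7 ± 1.03 in WT (SD, n = 3 each; log2 fold change -0.35, adjusted p = 0.0208), a call that ended under equal library medians (adjusted p = 0.072) and without any KO replicate or WT replicate 3 (adjusted p of up to 0.0861). The catalytic subunits Ppp1ca (-0.08), Ppp1cb (-0.11) and Ppp1cc (0.11) did not pass on the log2 scale, with adjusted p of 0.295 to 0.557, and Ppp1ca and Ppp1cb changed sign with totals without the 10 most abundant genes. Among 11 tested kinases that act on glycogen enzymes, 1 was called in limma, beside 17.3% of all tested genes. This was Csnk2a2, a catalytic subunit of casein kinase 2. It averaged 0.83 ± 0.04 RPKM in KO and 1.20 ± 0.05 in WT (log2 fold change -0.27, limma adjusted p = 0.0185). Csnk2a2 was under 1 RPKM in every KO library and reached the test only through WT. Its call ended under equal library medians (adjusted p = 0.0811) and without any one KO replicate (adjusted p of up to 0.0846). Gsk3b, the kinase that inhibits glycogen synthase, was at 1.04 ± 0.16 RPKM in KO and 1.71 ± 0.46 in WT. It did not pass in limma (log2 fold change -0.40, adjusted p = 0.0702). It passed in 2 of 12 other limma fits, as without WT replicate 4 (adjusted p = 0.0106), with an adjusted p of up to 0.206 in the rest. Prkar1a and Prkacb, subunits of protein kinase A, were at -0.44 (adjusted p = 0.0743) and 0.18 (adjusted p = 0.0912). Prkar1a passed in 3 of the 12 fits, as without KO replicate 2 (adjusted p = 0.0446) and without WT replicate 4 (adjusted p = 0.0369). Prkacb passed in 3 of the 12, as under equal library medians (adjusted p = 0.0228). In the rest adjusted p was up to 0.223 for Prkar1a and 0.236 for Prkacb.

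Of the genes for calmodulin, the delta subunit of phosphorylase kinase and a part of many other complexes, Calm3 and Calm2 are given here. Both were higher in every KO library than in any WT library, as were 9.22% of all tested genes. Calm3 averaged 105 ± 1.66 RPKM in KO and 72.5 ± 7.47 in WT (SD, n = 3 each; log2 fold change 0.53, limma adjusted p = 0.00967). Calm2 was at 0.53 with a limma adjusted p of 0.0524. It passed in 4 of 12 other limma fits, as without WT replicate 4 (adjusted p = 0.00985), with an adjusted p of up to 0.167 in the rest. Of 7 tested genes of glucose entry and hexose phosphates, 1 rose, beside 3.83% of all tested genes. This was the glucose 6-phosphate transporter Slc37a4, at 4.97 ± 0.20 RPKM in KO and 2.99 ± 0.72 in WT (log2 fold change 0.60, adjusted p = 0.0213). Hexokinase 2, Hk2, was at 0.28 (adjusted p = 0.158). It passed in 4 of the 12 fits, as under equal library medians (0.38, adjusted p = 0.0398), with an adjusted p of up to 0.379 in the rest. The insulin receptor Insr was at -0.35 (adjusted p = 0.0836). It passed in 2 of the 12 fits, as without WT replicate 4 (adjusted p = 0.0376), with an adjusted p of up to 0.224 in the rest. The calls of Slc37a4 and Stbd1 ended without any one of the KO replicates (adjusted p of up to 0.0863 and 0.0849), that of Stbd1 also without WT replicate 3 (adjusted p = 0.0667), and that of Pgm2 without KO replicate 3 (adjusted p = 0.0537).

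**Figure D3:**
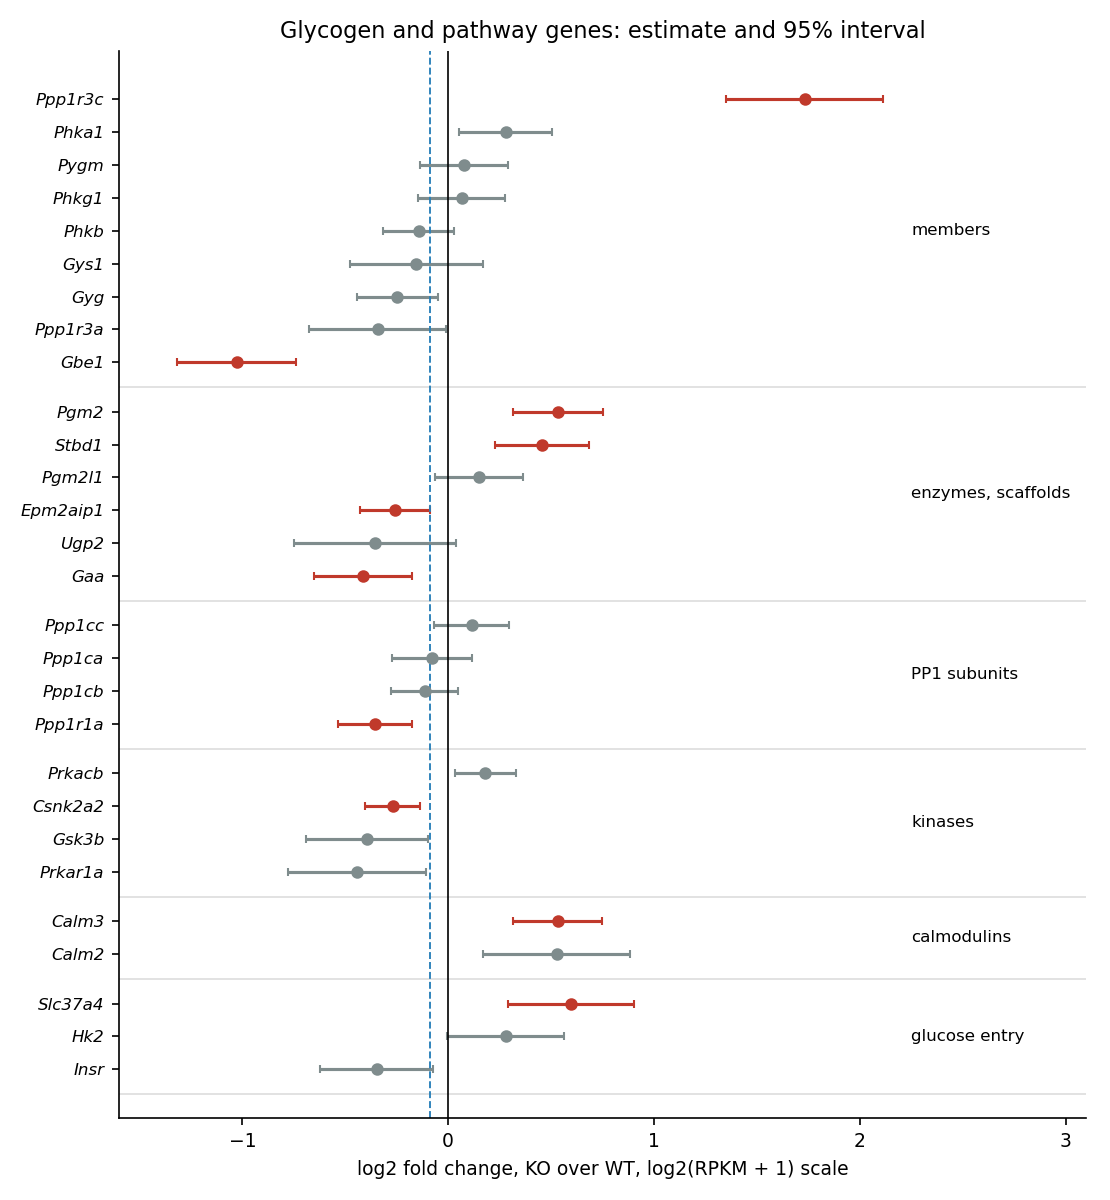
Log2 fold changes of KO over WT on the log2(RPKM + 1) scale with 95% intervals from limma, for the 9 glycogen genes and 19 further genes of the pathway lists; red marks an adjusted p under 0.05, grey the rest, and the dashed line is the median of all tested genes at -0.09. Ppp1r3c at 1.73 and Gbe1 at -1.03 lie outside the range of all other genes drawn.

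Markers of fibre types and of other cells differed between the same libraries. Both myosins of IIa and IIx fibres, Myh1 and Myh2, were called lower, beside 13.5% of all tested genes. Their summed level was 1614 to 2717 RPKM in KO and 3387 to 4389 RPKM in WT. The 6 genes listed for fast fibres, IIb among them, summed to 95142 to 101947 RPKM in KO and 84954 to 92300 in WT. None was called in limma (adjusted p = 0.0885 for Myh4). Every KO library was above every WT library in 2 of the 6, Myh4 and Actn3, beside 9.22% of all tested genes. Myh4 averaged 41345 RPKM in KO and 33597 in WT. Tnnt3 (31067 and 30063) and Tnni2 (20531 and 19875) make up much of the sum and overlapped between the groups. The 6 slow fibre markers summed to 293 to 475 RPKM in KO and 149 to 959 in WT, so WT libraries varied more among themselves. The 4 tested Schwann cell markers were called lower, beside 13.5% of all tested genes, but Mbp and Prx had every KO library under 1 RPKM and reached the test only through WT. The Schwann cell list had sums over 5 markers of 6.98 to 9.69 RPKM in KO and 30.8 to 49.0 in WT. Of 5 tested endothelial markers 1 was called lower, Cldn5, beside 13.5% of all tested genes, and Cldn5 also reached the test only through WT. The endothelial list had sums of 12.9 to 14.1 RPKM in KO and 16.3 to 25.2 in WT. Of 4 tested markers of fibro-adipogenic progenitors 2 were called higher, Col3a1 and Smoc2, beside 3.83% of all tested genes. Dcn and Col1a1 overlapped between the groups. The sums over 6 markers were 21.3 to 25.7 RPKM in KO and 14.0 to 23.5 in WT. No marker in these lists with a deposited row was at 0, while the Schwann cell marker S100b had no row, so its level is unknown. The part of fibre types and of other cells in the differences of Ppp1r3c and Gbe1 was not tested, and in whole muscle fewer cells of a type and less RNA per cell cannot be told apart. The skeletal muscle markers Ckm, Acta1, Ttn, Des and Mb, which define the labelled tissue, were all present. They summed to 9376 to 10393 RPKM in KO and 10196 to 10509 in WT. Among them Mb alone was called lower, beside 13.5% of all tested genes.

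KO replicate 1 was the lowest KO library for 7 of the 9 glycogen genes and for 51.8% of all tested genes. WT replicate 4 was the lowest WT library for 4 of the 9, namely Gbe1, Gys1, Ppp1r3a and Pygm, and for 44.4% of all tested genes. Among WT libraries the lowest median over all tested genes was in replicate 3, at 2.22 on the log2(RPKM + 1) scale, against 2.23 in replicate 4 and 2.35 in replicate 2.

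Genes with the most similar pattern were found by the root mean square difference between mean-centred log2(RPKM + 1) profiles over the 6 libraries. For Ppp1r3c these were Gm9780 (difference 0.15), Gm23419 (0.16) and the cytoplasmic actin gene Actg1 (0.17). Gm9780 was under 1 RPKM in WT replicates 3 and 4 and reached the test only through KO. Actg1 averaged 45.4 ± 0.96 RPKM in KO and 16.1 ± 2.83 in WT (SD, n = 3 each), and WT replicate 3 was its lowest library, as for Ppp1r3c. Closest to Gbe1 were Mettl7a1 (difference 0.09), Napb (0.10) and Tnfrsf19 (0.10), and in each of these WT replicate 4 was the lowest WT library. The nearest genes were picked for likeness over these same libraries, so a shared lowest library follows largely from the choice. Tnfrsf19 was under 1 RPKM in every KO library and reached the test only through WT. Mettl7a1 averaged 4.11 ± 0.13 RPKM in KO and 8.82 ± 1.51 in WT (SD, n = 3 each).

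Fold changes in the authors' deposited table differed from those of the deposited RPKM values. For Ppp1r3c the authors' deposited table gives a log2 fold change of 1.46 and an FDR of 0.0391, while the log2 ratio of mean RPKM was 1.71. For Gbe1 the authors' deposited table gives -1.03 and an FDR of 0.0529, just past 0.05, while the log2 ratio of mean RPKM was -1.37. The authors' deposited table lists Gys1 at 0.05 and Phkb at 0.04, above 0, where the RPKM ratios were -0.17 and -0.15. Phka1 stands at 0.38 with an FDR of 0.0824 in the authors' deposited table. Pgm2 (0.52, FDR 0.0623), Stbd1 (0.51, FDR 0.0547) and Gaa (-0.26, FDR 0.224), called by limma above, did not reach an FDR under 0.05 there. The authors' deposited table has 191 genes with an FDR under 0.05, 84 higher and 107 lower in KO. Limma called 290 higher and 1021 lower among the tested genes. Over all tested genes the log2 fold change of the authors' deposited table was higher than the RPKM ratio by a median of 0.13, and neither its scaling nor its test is stated in the sources used.

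**Figure D4:**
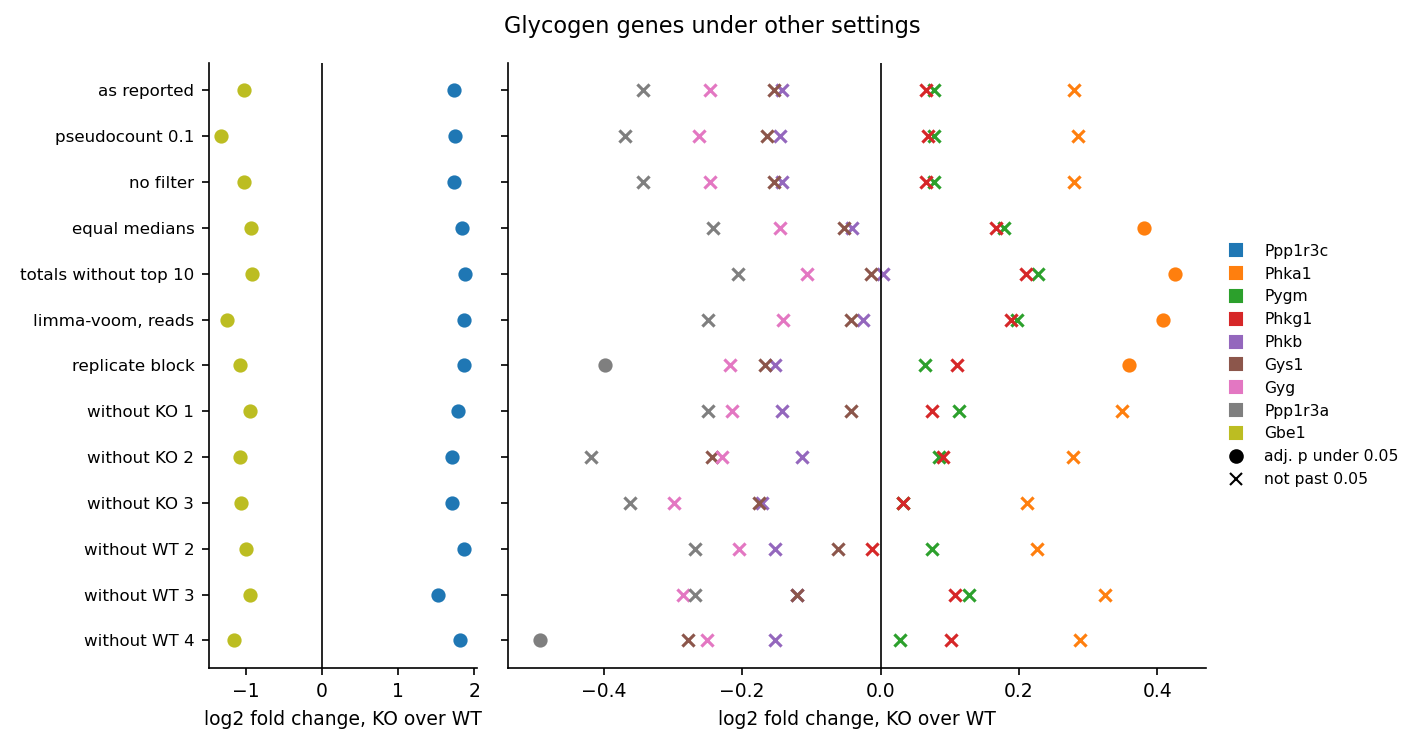
Log2 fold changes of KO over WT for the 9 glycogen genes as reported and under 12 other settings (rows), with Ppp1r3c and Gbe1 in the left panel and the other 7 genes, on a stretched scale, in the right panel; circles have an adjusted p under 0.05 and crosses do not. Ppp1r3c stays between 1.53 and 1.88 and Gbe1 between -1.32 and -0.92, while Phka1 and Ppp1r3a pass in some rows only and Phkb and Phkg1 cross 0.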

How the data were processed

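Gastrocnemius RNA of 3 KO and 3 WT libraries was sequenced. Per the labels' protocols, mRNA was fragmented and copied with random hexamers, and sample titles gave the groups. GRCm39 is the build in the submitters' processing notes. The aligner, the counter, the annotation and any strand setting are not given in the sources used. The authors deposited RPKM values per gene, a unit inferred from the values. Library totals were fitted so that reads came out whole. With them GENCODE M21 exon lengths gave whole reads (within 0.02) for 80.4% of the 11481 genes with a unique symbol there. For the other genes a length was searched that made the reads of all libraries whole. The 100% of 11815 genes reached in this way is therefore no check. Ppp1r3c is among the searched genes, with an inferred length of 2719 bp against 2725 bp in M21. The authors' log2 fold changes and log2 CPM, F score, p-value and FDR are named per the file headers. 

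Tests were limma-trend (limma 3.58.1, R 4.3.3) on log2(RPKM + 1) with genotype as the only term, over the 7574 genes that reached 1 RPKM in 3 or more libraries, with Benjamini-Hochberg adjustment. Fold changes on this scale understate those of low genes. Replicates differed by more than sampling noise, with a lowest chi-square per degree of freedom of 25.3, so none was counted as a duplicate. Members and gene lists were chosen with earlier results of these data known. Named genes were the 9 members, every called gene of each list and up to 3 others with the smallest p, and the 3 genes nearest to Ppp1r3c and to Gbe1, and some genes that the rule names are not reported here. Promoters are RefSeq's, and coordinates are of GRCm38, not the build of the notes. Python 3.11.15 with pandas 2.3.3, numpy 2.4.6, scipy 1.17.1 and matplotlib 3.10.9 did the rest.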

Additional observations from a re-analysis of the deposited data

How the results depend on the processing

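The calls of Ppp1r3c and Gbe1 held under all 12 alternative limma fits, with adjusted p of up to 0.0112 and 0.0171. Among these fits, the one with replicate number as a block takes its fold changes from replicates 2 and 3 only. Genes called higher and lower over the whole table numbered 602 and 665 with equal library medians, 681 and 612 with totals without the 10 most abundant genes, 620 higher in limma-voom, and 575 and 1957 at an unadjusted p under 0.05. Leaving out 1 library gave 117 (without KO replicate 3) to 344 (without WT replicate 4) higher and 354 to 1293 lower, without the same libraries. Of the 9 glycogen genes, 2 were higher under equal medians, totals without the 10 most abundant genes, limma-voom and an unadjusted p, where 3 were lower. Without 1 library 1 was higher throughout and 1 to 2 lower. Of the other pathway genes, 9 were higher with equal medians and with totals without the 10 most abundant genes, and 10 in limma-voom, while 0, 1 and 2 were lower there (limma, with 4 lower as reported) and 8 at an unadjusted p. Without 1 library 1 to 6 were higher and 0 to 8 lower.

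Signs turned, none of them for a called gene, for Phkb (0.003), Ppp1ca (0.069) and Ppp1cb (0.029) with totals without the 10 most abundant genes, for Ppp1ca (0.044) and Ppp1cb (0.002) in limma-voom, for Ppp1ca (0.024) with equal medians and for Phkg1 (-0.012 to 0.108 over the fits without 1 library) without WT replicate 2. In these libraries the scaling settings raised KO relative to WT, as library medians were 2.12 to 2.20 in KO and 2.22 to 2.35 in WT (log2(RPKM + 1)). The turn of Phkg1 came with a library left out and not with scaling. Other causes of the turned signs were not tested. Leaving out 1 library for the ratios was chosen after seeing the data. It gave differences of -0.348 (without KO replicate 2) to -0.143 (without WT replicate 2) for Gys1 to Pygm, against -0.243 with all libraries.

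With replicate number as a block, 2 glycogen genes were higher (Ppp1r3c and Phka1), 2 lower (Gbe1 and Ppp1r3a) and 8 other pathway genes higher. The other pathway genes lower stayed at 4, but Epm2aip1 (adjusted p = 0.0685), Ppp1r1a (0.0501) and Csnk2a2 (0.0653) were lost, and Gsk3b (0.0173), Prkar1a (0.0183) and Insr (0.0455) passed. Only numbers 2 and 3 occur in both genotypes. KO replicate 1 and WT replicate 4 therefore add nothing to the fold changes of the block fit, which rest on replicates 2 and 3. Only 1 residual degree of freedom is left, so calls gained or lost under the block carry little weight. The labels do not say that a number marks a shared day or litter. The correlation of deviations was 0.479 and 0.27 for the pairs with numbers 2 and 3, but 0.431 for KO replicate 1 with WT replicate 4.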
